A study of Mus musculus with 20 samples.

Results

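Integrins are cell surface receptors made of an α and a β chain, and laminins are basement membrane proteins made of an α, a β and a γ chain. The genes of 36 such chains were followed in mouse sarcomas: 18 integrin α chains, 8 integrin β chains and 10 laminin chains. They were found by symbol among the 51826 gene rows of the count table, and all 36 passed the filter on low counts that left 18452 genes for testing. RNA had been sequenced from 6 primary tumours, numbered 1 to 6, and from 14 lung metastases, each tied by its title to 1 primary tumour and forming with it a matched set: primary tumours 1 and 2 had 4 metastases apiece, 3 and 6 had 2, and 4 and 5 had 1. Metastases are written with the set first, so that 2-3 is metastasis number 3 of set 2; the metastasis of set 5 has no number and is written 5-x. The only genotype label, shared by all 20 samples, is a mixed background. The labels name no allele, agent, age, tumour site or time of collection, and they leave unsaid whether samples are from different animals. The p-values therefore reflect the spread among these samples only.

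The integrin pairs α3β1, α6β1, α6β4 and α7β1 bind laminins. α1, α2, α10 and α11 pair with β1 and bind collagens, while α5, α8 and the αv pairs bind fibronectin, vitronectin and other ligands with the RGD motif. The β2 and β7 chains belong to leukocytes, and αIIb with β3 to platelets. α4, a partner of β7, also pairs with β1 and is not restricted to leukocytes. Among laminins, α2 is the chain of muscle basement membrane, α4 of vessels and mesenchyme, α5 of many adult epithelia and vessels, and α3 with β3 of epithelia that rest on hemidesmosomes.

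Libraries held 20603620 to 36824370 counts. Levels are given as CPM, the counts of a gene scaled to library size with TMM factors. For log2 CPM a prior count of 2 was added. The index of a marker list is the mean log2 CPM of its genes. In these bulk samples fewer cells of a type and less RNA per cell cannot be told apart. Primary tumours 4 and 6 stood apart: their leukocyte indices were -0.707 and -0.953 against 6.72 to 7.22 in the other primary tumours, and their endothelial indices -1.54 and -0.712 against 5.07 to 6.36. The skeletal muscle index was -0.88 and -2.44 in them and 8.13 to 9.04 in the others. The mesenchyme index was 3.53 in primary tumour 4 and 7.20 in primary tumour 6, against 8.65 to 9.65. The lung epithelium index was -2.92 to 1.28 in primary tumours and 0.355 to 8.19 in metastases, and it was within the range of the primary tumours in metastases 2-3 (1.04) and 2-4 (0.36). Metastasis 3-1 had the highest index of basal and skin epithelium, 2.47. By correlation over all tested genes, the library most like a metastasis was of its own set for 8 metastases and of another set for 6, and for 0 was it the matched primary tumour.

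**Figure D1:**
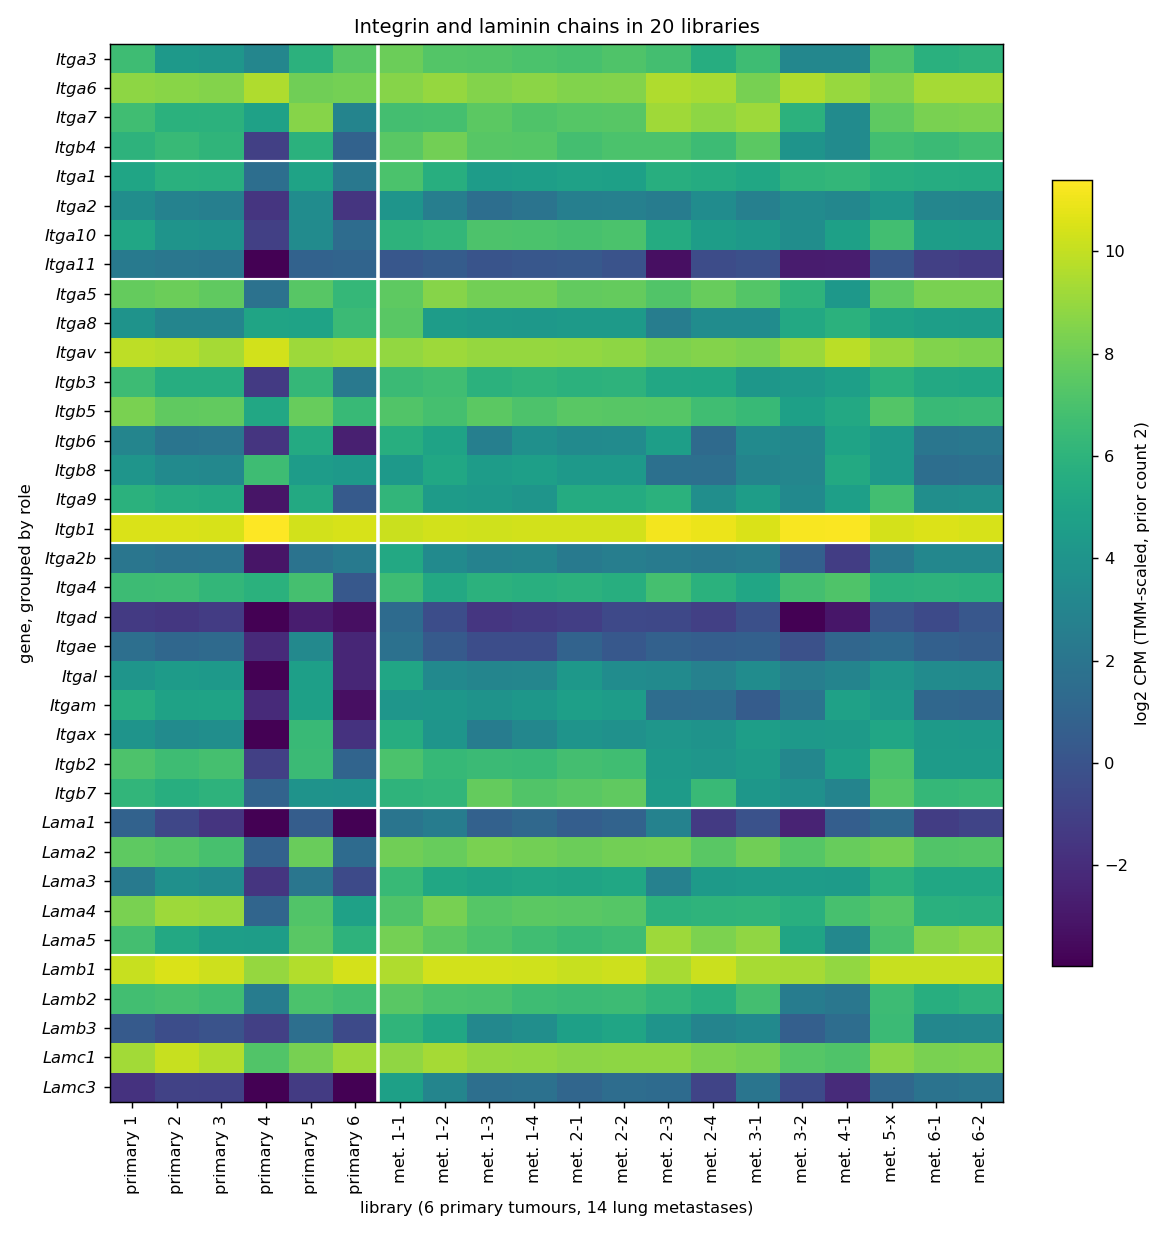
Log2 CPM of the 36 chains (rows, grouped by role, white lines between roles) in the 20 libraries (columns, primary tumours left of the vertical line). Primary tumours 4 and 6 are dark for most leukocyte chains and for Lama1, Lama2 and Lama3, while Itgb1, Itgav, Itga6 and Lamb1 are bright in every library.

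In lung metastases 4 chains were higher and 3 lower than in the matched primary tumours, by edgeR's quasi-likelihood test with the matched set as a block and an adjusted p under 0.05 over all genes. The laminin chains Lamb3, Lama3 and Lamc3 and the collagen receptor chain Itga10 rose. The αv chain Itgav, the collagen receptor chain Itga11 and the laminin γ1 chain Lamc1 fell. These counts are 11.1% and 8.33% of the chains, beside 7.34% of all tested genes that rose and 6.44% that fell, so the shares of the chains lie near the background. The median log2 fold change was 0.44 over the 36 chains and -0.00032 over all tested genes. Of the 10 laminin chains 3 rose and 1 fell, and of the 26 integrin chains 1 rose and 2 fell. For 0 of the 36 chains did the metastases and the primary tumours not overlap, where 0.981% of tested genes had all metastases above all primary tumours and 0.412% had all below. The mean of the metastases was above the primary tumour in all 6 sets for 6 chains, Itga10, Lama1, Lama2, Lama3, Lamb3 and Lamc3 (16.7%, beside 9.0% of all tested genes), and below it in all 6 sets for Itgav (2.78%, beside 6.42%). These counts changed with the libraries used, as did the shares of all tested genes. Without set 1, 1 chain rose (Lamb3) and 1 fell (Itgav), or 2.78% each, beside 3.09% and 2.36% of all tested genes. Without set 2, 0 fell, beside 2.22%. Without sets 4 and 6 only Lama3 and Lamb3 rose (5.56%, beside 4.17%). With the metastases of each set summed, 1 rose (Lamb3) and 0 fell, beside 1.69% and 0.357%. Of 10 skeletal muscle markers 7 fell and 0 rose, and in a fit with their index as a covariate 18 chains rose (50%, beside 15.4% of all tested genes in that fit). That index was -0.385 to 6.57 in metastases, -0.88 and -2.44 in primary tumours 4 and 6, and 8.13 to 9.04 in the others. The index and the tumour type therefore cannot be fully told apart in that fit. All but Itga4, Itga5, Itga7 and Itgad of these risers were lower in primary tumours 4 and 6 than in every other library.

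**Figure D2:**
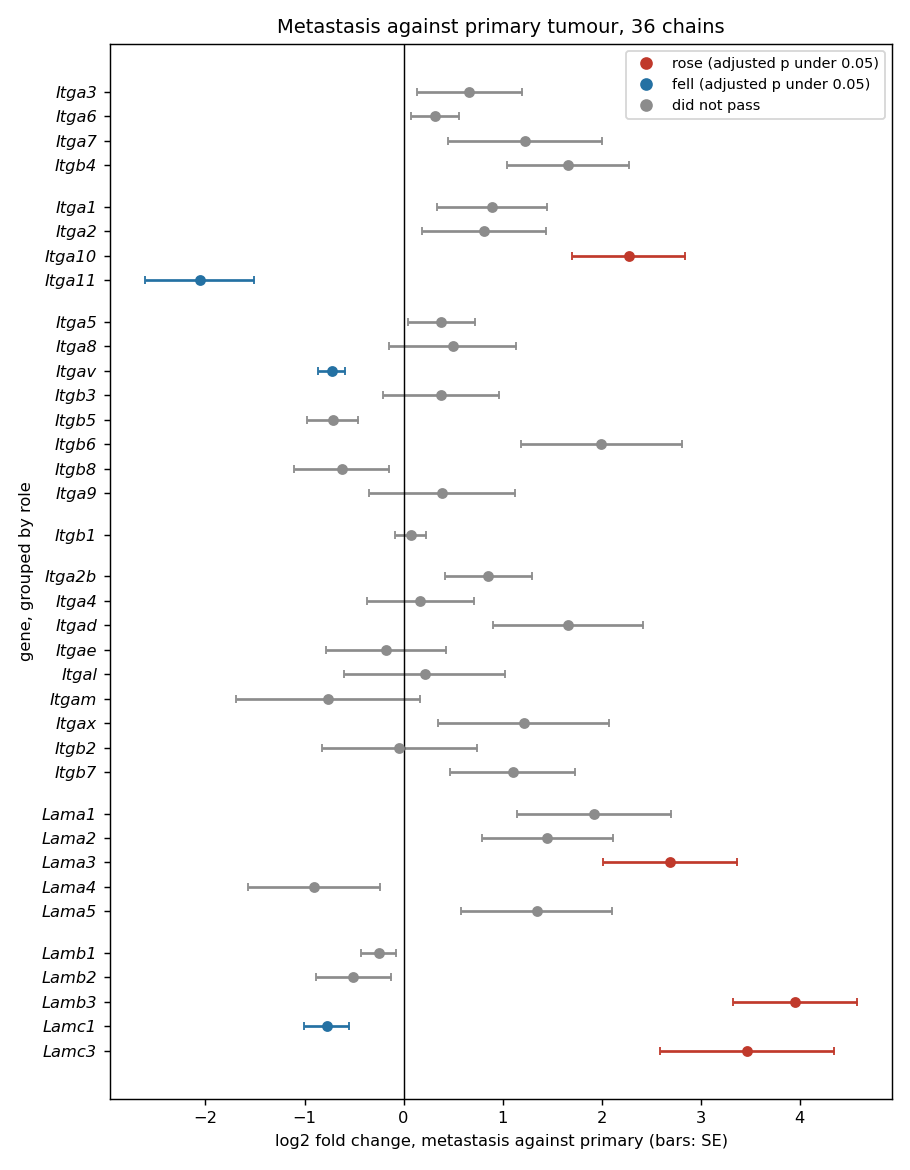
Log2 fold change of metastasis against primary for each chain (points) with its SE (bars), grouped by role. The 4 chains that rose and the 3 that fell are coloured, and Lamb3 lies farthest right at 3.95.

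Lamb3, the β3 chain that joins α3 in the laminin of hemidesmosomes, had the largest fold change among the 36. It had 234 counts in all in the 6 primary tumours, 8 to 104 in each. In primary tumours its CPM ran from 0.428 to 3.06 with a median of 0.812, and in metastases from 1.53 to 91.0 with a median of 11.1. All primary tumours were low, 12 of 14 metastases lay above the highest of them, and only metastases 3-2 (1.53) and 4-1 (2.79) reached into their range. Lamb3 was 15.5-fold higher in metastases (log2 3.95 ± 0.625 SE, edgeR adjusted p = 0.00174), and over 29 alternatives the adjusted p ran from 1.06e-12 to 0.0681. Lamb3 (ENSMUSG00000026639.18) is found in mm10 on chromosome 1, plus strand, at 193207699 to 193343878.

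Lama3, the α chain of the same laminin, had 0.268 to 13.6 CPM in primary tumours (median 4.69) and 6.94 to 82.6 CPM in metastases (median 33.3). Primary tumours 2 and 3 were the highest of their group at 13.6 and 10.9 CPM. Metastasis 2-3, at 6.94 CPM, was the only metastasis below the highest primary tumour, and it was lower than its own primary tumour. The rise of Lama3, 2.69 ± 0.672 on the log2 scale, passed (edgeR adjusted p = 0.0156), but not without set 1 (2.52, adjusted p = 0.105) or with summed metastases (3.45, adjusted p = 0.113).

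Lamc3, the γ3 chain, was scarce. It had 52 counts in all in the 6 primary tumours, with 0 counts in primary tumours 4 and 6, where 3 counts would be 0.161 and 0.101 CPM. Its CPM was at most 0.454 in primary tumours and ran from 0.178 to 27.7 in metastases (median 2.97). Metastasis 1-1 was far above the rest at 27.7 CPM, the next being 1-2 at 8.21, and metastasis 4-1 alone fell within the range of the primary tumours. Lamc3 rose by 3.47 ± 0.875 on the log2 scale (edgeR adjusted p = 0.0162), but did not pass without set 1 (3.02, adjusted p = 0.0727), without sets 4 and 6 (2.93, 0.0515) or with summed metastases (3.79, 0.101). Lamc3 (ENSMUSG00000026840.14) lies on chromosome 2 from 31887291 to 31946539, on the plus strand.

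These 3 laminin chains and Itga10 rose in the same comparison as the markers of lung epithelium. Of those markers 13 of 15 rose and 0 fell, with a median log2 fold change of 6.39. Whether the 4 chains follow the index of these markers among the metastases was not tested. Once the fit held this lung index as a covariate, 0 of the 36 chains rose, beside 4.38% of all tested genes. The log2 fold changes were 2.49 for Lamb3 (edgeR adjusted p = 0.0681), 1.02 for Lama3 (0.508), 2.16 for Lamc3 (0.289) and 0.81 for Itga10 (0.546). The index itself differed between the groups, so the index and the tumour type cannot be fully told apart in that fit. In metastases 2-3 and 2-4, whose indices were within the range of the primary tumours, Lamb3 was at 15.6 and 7.80 CPM, above every primary tumour. The index is a mean, and its genes differed in these 2 metastases. Of its 15 genes only Krt18, Foxa2 and Ager were above every primary tumour in both. Krt18 was at 403 and 687 CPM, against at most 262. Foxa2 was at 2.23 and 0.120 CPM, against at most 0.101, and Ager at 1.62 and 1.63 CPM, against at most 1.25. Nkx2-1, Krt8 and Epcam were above every primary tumour in 1 of these 2 metastases. The other genes, Sftpa1, Sftpb, Sftpc and Sftpd among them, were so in neither. Cdh1, an epithelial gene outside the index, was at 24.9 and 12.3 CPM, against at most 10.6 in primary tumours. These markers were chosen after their values were seen. Lamc3 was at 2.62 and 0.512 CPM in them, also above every primary tumour, but by little in 2-4. Lama3, at 6.94 and 21.1 CPM, and Itga10, at 45.8 and 23.8 CPM, were each above the highest primary tumour (13.6 and 34.4 CPM) in 1 of these 2 metastases. Most markers of basal and skin epithelium did not pass the filter on low counts (2 of 7 tested, 0 called). Their index was 2.47 in metastasis 3-1, and the next highest was -0.967 in metastasis 2-3.

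**Figure D3:**
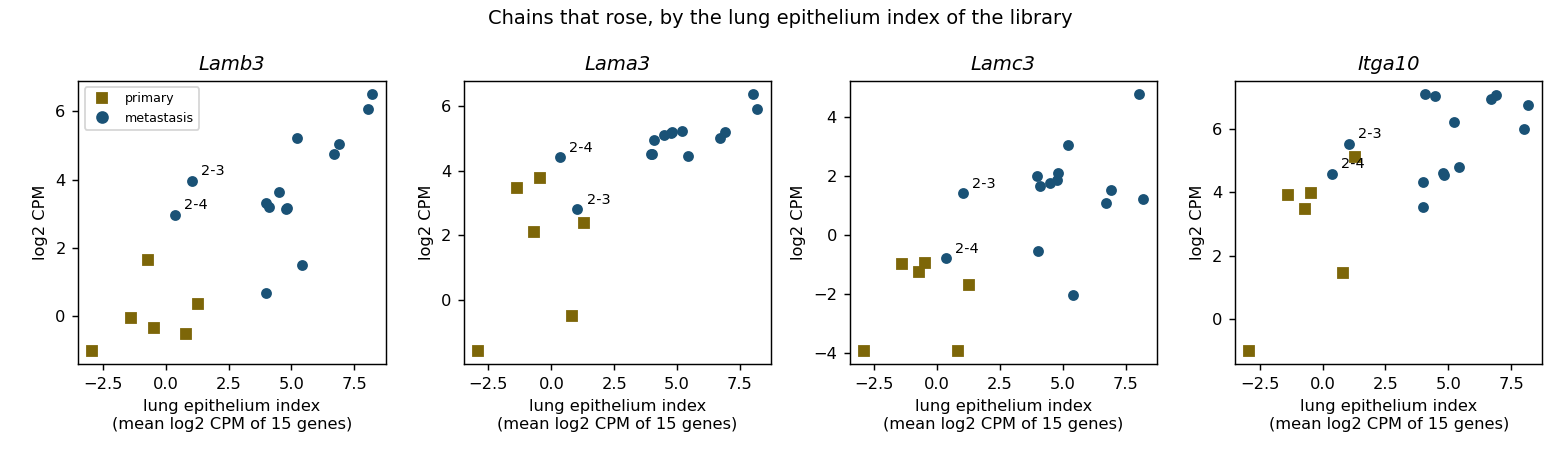
Log2 CPM of the 4 chains that rose against the lung epithelium index of each library (squares, primary tumours; circles, metastases). Metastases 2-3 and 2-4, marked by their numbers, have indices of 1.04 and 0.36, and their Lamb3 lies above all 6 primary tumours.

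The other laminin α chains did not pass. Lama2, the α chain of muscle laminin, had 1.71 and 2.59 CPM in primary tumours 4 and 6 and 119 to 238 CPM in the other primary tumours, against 152 to 314 CPM in metastases. Primary tumours 1, 2 and 5 overlapped with the metastases, primary tumour 3 lay somewhat below them, and only 4 and 6 were far below. Its log2 fold change of 1.45 ± 0.662 had an edgeR adjusted p of 0.16, and the 6 sets differed in their effect (interaction adjusted p = 0.00186): 7.02 in set 4, 5.85 in set 6, and 0.20 to 0.81 elsewhere. Of the 36 chains 5 passed this interaction test (Lama2, Lama4, Itgb3, Itgal and Itgax), or 13.9%, beside 4.1% of all tested genes. Lama4, the α chain of vessels and mesenchyme, was highest in primary tumours 2, 3 and 1 (566, 521 and 320 CPM), lowest in primary tumours 4 and 6 (1.98 and 28.6 CPM), and at 51.9 to 298 CPM in metastases. Its log2 fold change was -0.91 ± 0.663 (edgeR adjusted p = 0.398), and without sets 4 and 6 it passed at -1.74 (adjusted p = 0.0247). Lama5 ran from 24.5 to 177 CPM in primary tumours and from 9.08 to 564 CPM in metastases, with a log2 fold change of 1.34 ± 0.761 (adjusted p = 0.261). It was highest in metastases 2-3 (564 CPM), 6-2 (466.3), 3-1 (458), 6-1 (368) and 2-4 (327), and 4-1 was the lowest library of all at 9.08. Lama1, the α chain of embryonic basement membrane, reached only 1.76 CPM in primary tumours and 7.26 CPM in metastases (1.92 ± 0.775, adjusted p = 0.113).

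Among the common β and γ chains, Lamc1 fell and Lamb1 and Lamb2 did not pass. Lamc1, the γ1 chain shared by most laminins, had 150 to 1104 CPM in primary tumours (median 581) and 144 to 630 CPM in metastases (median 428). The groups overlapped almost wholly: primary tumours 2 and 3, at 1104 and 800 CPM, were above all metastases, and primary tumour 4 was next to the lowest library. Lamc1 fell by 0.78 ± 0.229 on the log2 scale (edgeR adjusted p = 0.0336). Its call was the least stable of the 7 and ended under 14 of 29 alternatives, among them the fit without the block (-0.61, adjusted p = 0.22) and the fits without metastasis 3-1 (0.0589), 6-1 (0.0555) or 6-2 (0.0541). Lamc1 (ENSMUSG00000026478.14) lies on chromosome 1 from 153218922 to 153332786, on the minus strand. Lamb1 stayed between 483 and 1477 CPM in all 20 libraries (-0.25 ± 0.176, adjusted p = 0.378). Lamb2 had 104 to 133 CPM in 5 primary tumours and 5.62 CPM in primary tumour 4, and 4.24 to 181 CPM in metastases (-0.51 ± 0.38, adjusted p = 0.411).

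Levels of different genes were set side by side as CPM per kilobase of merged exons. In primary tumours the median level of the laminin α chains was 19.4 for Lama4, 8.60 for Lama2, 4.51 for Lama5, 0.44 for Lama3 and 0.04 for Lama1. In metastases the order was Lama2 (15.6), Lama5 (13.7), Lama4 (11.1), Lama3 (3.10) and Lama1 (0.16). The ranges of Lama2, Lama4 and Lama5 overlapped in both groups, so their order among themselves does not exceed their spread. Lamb1 was the leading β chain, at 118 in primary tumours and 112 in metastases, and Lamc1 the leading γ chain, at 70.2 and 51.8. Despite its rise, Lamb3 reached a median of only 1.68 per kilobase in metastases, and the log2 ratio of Lamb3 to Lamb1 per kilobase had a median of -9.70 in primary tumours and -5.78 in metastases, higher in 6 of 6 sets. The log2 ratio of Lama5 to Lama4 ranged widely, from -4.30 to 3.71 in primary tumours and from -3.68 to 3.31 in metastases, and was higher in the metastases of 4 sets. In primary tumour 4 the α chains were far below their partners: Lama5 was at 2.15 per kilobase, Lama4 at 0.164 and Lama2 at 0.105, beside 49.9 for Lamb1 and 18.1 for Lamc1.

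**Figure D4:**
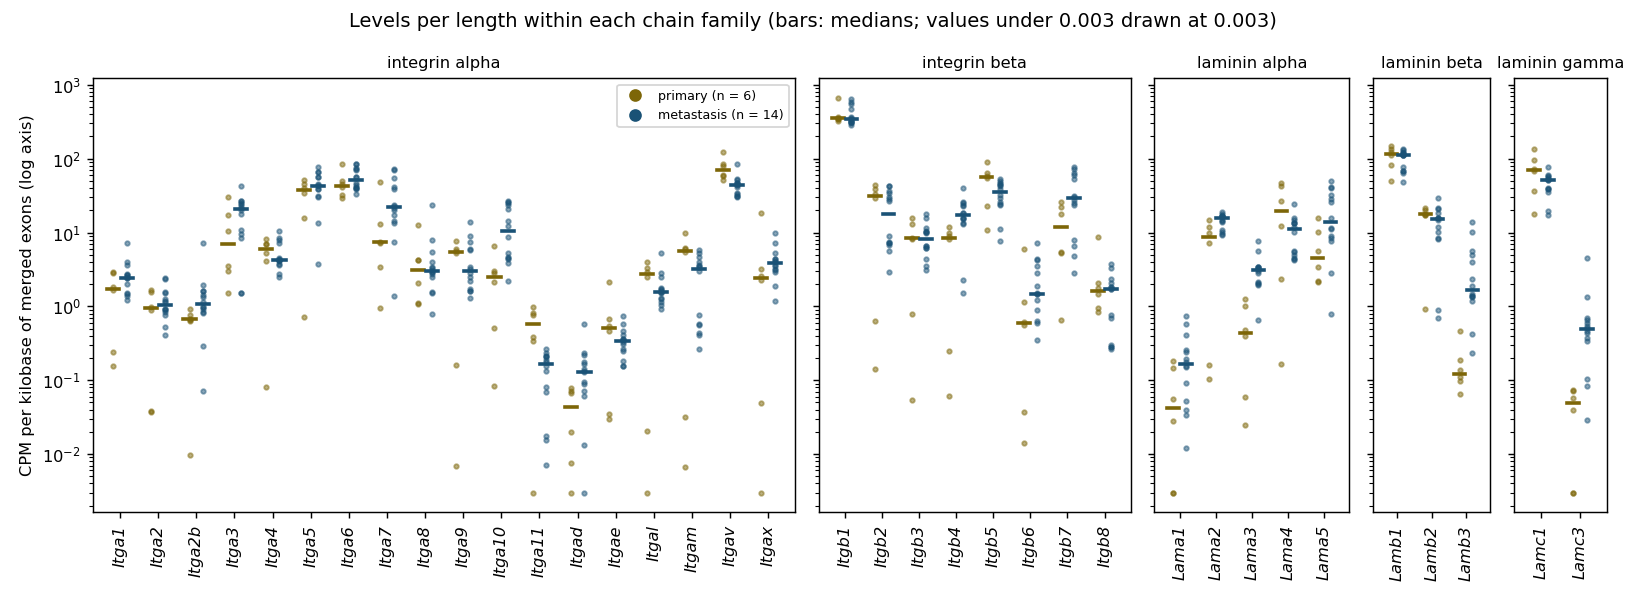
CPM per kilobase of merged exons (log axis) of each chain within its family, with a point for each library and a bar at the median, for primary tumours and metastases. Itgb1 is the highest integrin β chain and Lamb1 the highest laminin β chain in both groups, and among the laminin α chains Lama2, Lama4 and Lama5 overlap.

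Of the receptor chains for these laminins, Itga3, Itga6, Itga7 and Itgb4, 0 passed in either direction by edgeR, with 1 (Itgb4) at an unadjusted p under 0.05 and 1 (Itgb4) passing by DESeq2. Itga6, whose product pairs with β1 or β4, was abundant everywhere, at 266 to 773 CPM in primary tumours and 300.1 to 774 CPM in metastases (0.31 ± 0.242, adjusted p = 0.426). Itgb4, the chain that anchors hemidesmosomes, had 0.428 and 1.75 CPM in primary tumours 4 and 6, 57.4 to 82.6 CPM in the others and 10.8 to 281 CPM in metastases. Metastases 3-2 and 4-1, at 15.8 and 10.8 CPM, were the only ones not above the highest primary tumour. Its log2 fold change of 1.66 ± 0.617 did not pass (adjusted p = 0.0856), but did without metastasis 3-2 (1.87, 0.0275), without set 3 (1.94, 0.0456) and by DESeq2 (1.68, 0.0138). Per kilobase, Itgb4 was far below Itgb1, with a log2 ratio of median -5.33 in primary tumours and -4.37 in metastases.

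Itga3 and Itga7, which pair with β1, varied between libraries without a call. Itga3 had 8.56 to 172 CPM in primary tumours and 8.64 to 246 CPM in metastases (0.66 ± 0.532, adjusted p = 0.446). Its lowest metastases were 4-1 (8.64 CPM) and 3-2 (8.75 CPM), the same libraries that were lowest for Itgb4, while primary tumour 6 was the highest primary tumour at 172 CPM. Itga7, the laminin receptor chain of skeletal muscle, had 7.61 to 396 CPM in primary tumours and 11.01 to 582 CPM in metastases (1.23 ± 0.779, adjusted p = 0.322). It was highest in metastases 2-3 (582 CPM), 3-1 (561) and 2-4 (445), and lowest among metastases in 4-1. The skeletal muscle index of these 3 was 6.57, 5.83 and 3.74. Among primary tumours it was 8.88 in number 5, which had the most Itga7 (396 CPM), and 9.04 in number 3, where Itga7 was at 60.2 CPM. In the fit with the skeletal muscle index as a covariate Itga7 rose (2.96, edgeR adjusted p = 0.0194). The index and the tumour type cannot be fully told apart there, and the part of the index in the level of Itga7 was not tested. Per kilobase, the log2 ratio of Itga6 to Itga7 had a median of 2.55 in primary tumours and 0.92 in metastases, and the metastases had the higher ratio in 2 of 6 sets.

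The α6β4 pair, the known receptor of the laminin with α3 and β3, had both ligand chains called and neither receptor chain. Itga6 stood at 51.6 per kilobase in metastases, Itgb4 at 17.2, Lama3 at 3.10 and Lamb3 at 1.68. For the α7β1 and α6β1 pairs, Itgb1 was by far the highest integrin chain at 352 per kilobase in primary tumours and 341 in metastases, and its log2 fold change was 0.07 ± 0.159 (adjusted p = 0.814). Of the other laminin receptors and linkers, 3 of 16 rose and 1 fell (18.8% and 6.25%, beside 7.34% and 6.44% of all tested genes). The risers were the syndecan gene Sdc1 (1.39 ± 0.243, edgeR adjusted p = 0.0028), the laminin-binding netrin gene Ntn4 (1.34 ± 0.353, 0.0205) and the hemidesmosome collagen gene Col17a1 (2.61, 0.0209). Dst, which encodes a linker of hemidesmosomes and the cytoskeleton, fell (-0.75 ± 0.164, adjusted p = 0.00819). The list had a median log2 fold change of -0.08. In the fit that held the lung index, Sdc1 (1.23, edgeR adjusted p = 0.0739), Ntn4 (0.52, 0.576) and Dst (-0.51, 0.278) lost their calls. Col17a1 kept its call there (4.06, 0.0165), and the syndecan gene Sdc4 gained one (1.48, 0.0371). Ntn4 also lost its call without the block (1.14, 0.0719). Col17a1, Sdc4 and Col1a2 were chosen after their values were seen.

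The collagen receptor chains went both ways. Itga10 rose, from 0.428 to 34.4 CPM in primary tumours (median 13.0) to 11.6 to 137 CPM in metastases (median 54.3). Metastases 1-3, 1-4, 2-1, 2-2 and 5-x were high, at 107 to 137 CPM, and the metastases of set 3 (19.9 and 11.6 CPM) were close to their primary tumour (14.8 CPM). Itga10 was 4.83-fold higher in metastases (log2 2.27 ± 0.573, edgeR adjusted p = 0.0162). It did not pass without set 1 (2.497, 0.0764), set 2 (2.24, 0.062) or set 6 (2.11, 0.0642), without sets 4 and 6 (1.66, 0.0764), without the filter on low counts (2.24, 0.0552) or with summed metastases (2.65, 0.124). Itga10 (ENSMUSG00000090210.7) lies on chromosome 3 from 96645584 to 96664519, on the plus strand, and 33.5% of its exon bases are shared with the gene model Gm42957 on the same strand, so its level is uncertain.

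Itga11, the collagen receptor chain of fibroblasts, was scarce and fell. It had 5.05, 4.23 and 3.92 CPM in primary tumours 1, 2 and 3, 1.77 and 1.95 CPM in 5 and 6, and 0 counts in primary tumour 4, where 3 counts would be 0.161 CPM. In metastases it ran from 0.0359 to 1.34 CPM (median 0.854). Apart from primary tumour 4, every primary tumour was above every metastasis. Itga11 was 4.16-fold lower in metastases (log2 -2.06 ± 0.55, edgeR adjusted p = 0.0217), with 591 counts in all in primary tumours and 317 in metastases. The call ended without set 1 (-2.06, 0.135), set 2 (-1.90, 0.0753) or set 6 (-1.998, 0.0742), against a 1.5-fold change (0.0687), with the skeletal muscle index as a covariate (-1.91, 0.07) and with summed metastases (-1.84, 0.236). Of 6 mesenchyme markers 2 fell, Col1a2 and Pdgfra (-2.42), and 0 rose, with a median log2 fold change of -1.37. The mesenchyme index was 5.89 to 8.22 in metastases, against 8.65 to 9.65 in primary tumours 1, 2, 3 and 5. It was 3.53 in primary tumour 4. In primary tumour 6 it was 7.20, within the range of the metastases, while Itga11 was at 1.95 CPM, above every metastasis. The part of the index in the fall of Itga11 was not tested. Itga11 (ENSMUSG00000032243.8) lies on chromosome 9 from 62677826 to 62783982, on the plus strand. Itga1 (0.89 ± 0.558, adjusted p = 0.314) and Itga2 (0.81 ± 0.629, 0.428) did not pass, and both were lowest in primary tumours 4 and 6, at 2.94 and 4.54 CPM for Itga1 and 0.268 and 0.269 CPM for Itga2. Among their ligands, Col1a1 (-0.96 ± 0.777, adjusted p = 0.449) and Col4a1 (-0.94 ± 0.449, 0.181) did not pass, while Col1a2, the other chain of type I collagen and a mesenchyme marker, fell (-1.77 ± 0.158, edgeR adjusted p = 4.8e-05).

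Among the receptors of RGD ligands and other matrix proteins, Itgav fell. The αv chain had 560 to 1308 CPM in primary tumours (median 753) and 327 to 909 CPM in metastases (median 477). Of the 14 metastases 12 lay below the lowest primary tumour. The exceptions were 4-1, at 909 CPM, whose own primary tumour was the highest at 1308, and 1-2, at 565 CPM. Itgav was lower in the metastases of 6 of 6 sets, by 0.15 (set 5) to 1.08 (set 2) on the log2 scale. Itgav was 1.65-fold lower in metastases (log2 -0.73 ± 0.138, edgeR adjusted p = 0.00402). The call ended without set 2 (-0.62, adjusted p = 0.0504), against a 1.5-fold change (0.357) and with summed metastases (-0.63, 0.126). Itgav (ENSMUSG00000027087.11) lies on chromosome 2 from 83724397 to 83806916, on the plus strand. Per kilobase it was the leading α chain in primary tumours at 70.1, and in metastases its median of 44.4 lay between those of Itga6 (51.6) and Itga5 (43.3), with ranges that overlapped. Exon bases shared with gene models on the opposite strand were 5.90% for Itgav, 7.66% for Itgb4, 8.04% for Itga4 and 6.27% for Lamc3, and the reads of such stretches cannot be told apart where strand was not used in counting.

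**Figure D5:**
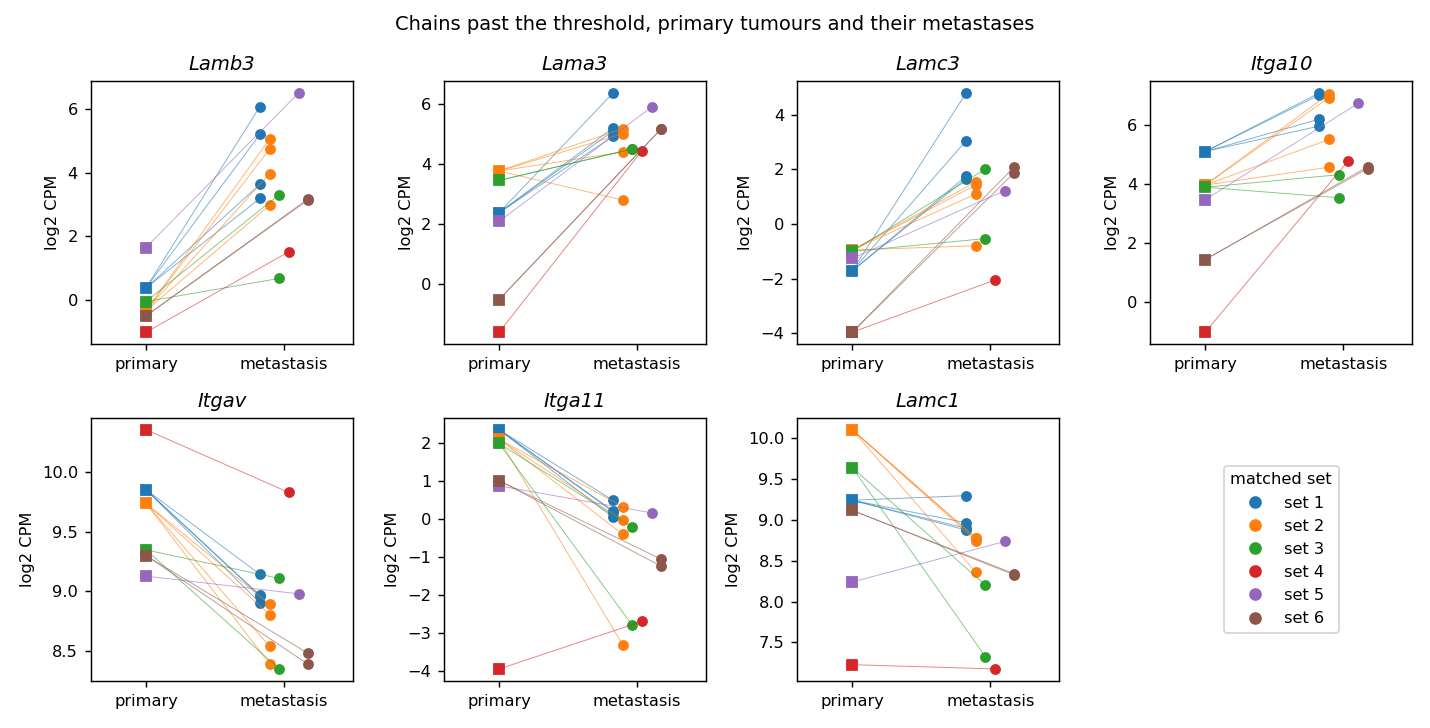
Log2 CPM of the 7 chains past the threshold in primary tumours (squares) and in their metastases (circles), joined by lines and coloured by matched set. Itgav slopes down in each set, Lamb3 slopes up in each set, and primary tumour 4 is the lowest primary tumour for Itga11 and Lamc1.

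The β partners of αv did not pass. Itgb5 had 38.7 to 317 CPM in primary tumours and 27.0 to 187 CPM in metastases (-0.72 ± 0.256, adjusted p = 0.0746), and it passed without sets 4 and 6 and without metastasis 3-2. Itgb6, the epithelial chain that with αv activates TGF-β, had 0.268 to 8.23 CPM in 4 primary tumours, 0.101 in primary tumour 6 and 43.0 in primary tumour 5, against 2.47 to 51.3 CPM in metastases (2.00 ± 0.814, adjusted p = 0.117), and passed by DESeq2 (0.0105). The log2 ratio of Itgb6 to Itgb5 per kilobase had a median of -6.60 in primary tumours and -4.21 in metastases, higher in the metastases of 5 of 6 sets. Itgb8 was highest in primary tumour 4, at 97.3 CPM, and was at 2.90 to 3.27 CPM in metastases 2-3, 2-4, 6-1 and 6-2 (-0.62 ± 0.477, adjusted p = 0.422). Itgb3 had 0.321 and 4.645 CPM in primary tumours 4 and 6 and 48.7 to 94.2 CPM in the others, and 18.2 to 104 CPM in metastases (0.38 ± 0.584, adjusted p = 0.716). Values for the fibronectin receptor chain Itga5 (0.38 ± 0.342, adjusted p = 0.499), for Itga8 (0.49 ± 0.637, 0.657) and for Itga9 (0.39 ± 0.736, 0.773) did not pass either. Itga8 stood out in metastasis 1-1, at 176 CPM against at most 58.3 CPM in the other metastases.

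Of 25 tested ligands of these and other integrins 2 rose and 2 fell (8.0% each, near the shares of all tested genes), with a median log2 fold change of 0.02. Tnc, which encodes the α9β1 and αv ligand tenascin C, fell (-1.75 ± 0.23, edgeR adjusted p = 0.000619), as did the fibrillin gene Fbn1 (-0.93, 0.0203). The E-cadherin gene Cdh1, ligand of αEβ7 and a marker of epithelia, rose (3.65 ± 0.661, 0.00323, from 0.107 to 10.6 CPM in primary tumours to 12.3 to 197 CPM in metastases), as did Tgfb2 (0.94 ± 0.224, 0.0124). Fn1 (-0.65 ± 0.41, 0.32), Npnt (0.72 ± 0.457, 0.323), Tgfb1 (0.50 ± 0.425, 0.471), Vcam1 (0.17 ± 0.28, 0.729) and Vtn (-0.17 ± 1.49, 0.957) did not pass. In the fit that held the lung index, Tnc lost its call (-1.21, adjusted p = 0.072), and Fbn1 (-1.56, 0.0389), Fn1 (-2.27, 0.0283) and Thbs1 (-1.97, 0.0185) were lower. Fbn1 and Thbs1 were outside the rule for naming genes and were chosen after their values were seen.

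Leukocyte and platelet chains, with Itga4 counted among them, did not pass: of 9 tested 0 rose and 0 fell by edgeR, with 1 at an unadjusted p under 0.05 (Itgad), and DESeq2 called 0 of them. Itgb2, the shared β chain of leukocyte integrins, had 0.428 and 1.92 CPM in primary tumours 4 and 6 and 90.3 to 136 CPM in the others. In metastases it was at 80.7 to 130 CPM in set 1, 2-1, 2-2 and 5-x and at 8.95 to 27.4 CPM in 2-3, 2-4, 3-1, 3-2, 4-1, 6-1 and 6-2, so that the metastases fell in 2 separate ranges. The leukocyte index, whose genes do not include an integrin, was 5.59 to 6.40 in the first of these and 3.93 to 5.42 in the second. Itgam, the partner of β2 on myeloid cells, was at 15.04 to 28.8 CPM in set 1, 2-1, 2-2, 4-1 and 5-x and at 1.34 to 3.81 CPM in the other metastases (-0.76 ± 0.931, adjusted p = 0.637). Of its exon bases 68.7% are shared with the same-strand model Gm49368, so its level is uncertain.

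The other leukocyte chains had their own patterns. Itgb7 was at 148 to 217 CPM in metastases 1-3, 1-4, 2-1, 2-2 and 5-x, above every other library, of which the highest was 2-4 at 86.7 CPM (1.10 ± 0.629, adjusted p = 0.266). Its partner chains did not follow it: in those 5 metastases Itga4 was at 50.5 to 61.2 CPM, inside the range of the others (34.6 to 145 CPM), and Itgae at 0.72 to 2.6 CPM. Itga4 had 1.14 CPM in primary tumour 6 and 57.6 to 115 CPM in the other primary tumours, primary tumour 4, with its leukocyte index of -0.707, among them (0.17 ± 0.539, adjusted p = 0.873). Itgal (0.21 ± 0.812, 0.895), Itgax (1.21 ± 0.866, 0.385), Itgae (-0.18 ± 0.608, 0.883) and Itgad (1.66 ± 0.758, 0.16) did not pass. Itga2b, the platelet chain, was at 39.7 CPM in metastasis 1-1 and at most 10.6 CPM in the others (0.86 ± 0.438, adjusted p = 0.21), and the platelet index, which counts Itga2b among its 7 genes, was highest in the same library at 2.80. Primary tumour 6 had the most Itga2b of the primary tumours, 5.02 CPM, with a platelet index of -2.18 against -0.884 to -0.567 in 1, 2, 3 and 5.

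The chains differed in their levels in primary tumours 4 and 6. Of the 36 chains 18 were lower in both of these than in each of the 18 other libraries (50%, beside 14.5% of all tested genes): Itga1, Itga2, Itga9, Itga10, Itgae, Itgal, Itgam, Itgax, Itgb2, Itgb3, Itgb4, Itgb6, Lama1, Lama2, Lama3, Lama4, Lamb3 and Lamc3. For 0 chains were both above all the others (8.03% of all tested genes). These libraries were picked out by their marker indices, and the share is a description. Among the chains that both retained were Itgb1 (2694 and 1401 CPM), Itgav (1308 and 630), Itga6 (773 and 291), Lamb1 (495 and 1335) and Lamc1 (150 and 556). The pair also differed from each other: Itga3 was at 8.56 CPM in primary tumour 4 and 172 in 6, Itga5 at 3.53 and 77.6, Lamb2 at 5.62 and 106, and Itga4 at 57.6 and 1.14.

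Between the metastases of sets 1, 2, 3 and 6, 0 of the 36 chains differed by edgeR's F test over 12 libraries, beside 0.321% of 19919 genes tested. At an unadjusted p under 0.05 there were 11 (30.6%, beside 29.5% of all genes), and DESeq2's likelihood ratio test called 13 (36.1%, beside 25.1%). Without metastases 2-3 and 2-4 edgeR called 9, Itga10, Itgam, Itgb2, Itgb3, Itgb7, Itgb8, Lama1, Lama4 and Lamc1 (25%, beside 19.4%), and without set 2 it called 7 of these (19.4%, beside 12.2%). In the full test the smallest adjusted p were those of Itgb3 (0.0526), Lamc1 (0.0806), Lama4 (0.0812) and Itga10 (0.0812).

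Of 32 genes of integrin adaptors and focal adhesions, the proteins that tie integrin tails to actin, 4 rose and 3 fell, shares near the 7.34% and 6.44% of all tested genes, with a median log2 fold change of -0.06. Ilk, the integrin-linked kinase (-0.97 ± 0.235, edgeR adjusted p = 0.0139), its partner Lims1 (-0.68 ± 0.168, 0.0145) and the kindlin gene Fermt2 (-0.65, 0.0494) fell. Parvb (1.00, 0.019), the focal adhesion kinase gene Ptk2 (0.71, 0.0272), Sharpin (0.55, 0.0428) and the epithelial kindlin gene Fermt1 (4.32 ± 1.03, 0.0124) rose, Fermt1 from at most 0.0884 CPM in primary tumours to at most 2.88 CPM in metastases. Fermt2, Parvb, Ptk2 and Sharpin were chosen after their values were seen. In the fit that held the lung index 2 rose (Parvb and Ptk2) and 1 fell (Ilk), beside 4.38% and 3.12% of all tested genes. With summed metastases 0 rose and 0 fell, beside 1.69% and 0.357%.

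RefSeq's promoter table (GRCm38.p6) held 26 windows for 23 of the 36 chains, among them those of 4 chains past the threshold. They are shown as the 250 bases before the annotated start, 5′ to 3′ on the gene's strand, to set the 2 that rose beside the 2 that fell. Lamb3 has 2 annotated starts in the table and a window for each. Capitals mark the E-box letters CAGGTG or, on the other strand, their complement CACCTG.
Lamb3, rose, chr1:193301744-193301993, plus strand: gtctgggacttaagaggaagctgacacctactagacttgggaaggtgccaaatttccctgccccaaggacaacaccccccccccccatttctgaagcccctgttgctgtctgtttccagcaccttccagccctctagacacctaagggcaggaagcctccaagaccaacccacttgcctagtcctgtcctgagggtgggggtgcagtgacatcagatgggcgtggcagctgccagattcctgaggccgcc
Lamb3, rose, another annotated start, chr1:193301993-193302242, plus strand: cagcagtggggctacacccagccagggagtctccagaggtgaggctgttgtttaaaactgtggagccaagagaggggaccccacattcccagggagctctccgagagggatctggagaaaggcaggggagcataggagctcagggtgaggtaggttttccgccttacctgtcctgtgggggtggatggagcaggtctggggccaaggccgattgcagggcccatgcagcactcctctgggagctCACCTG
Itga10, rose, chr3:96645334-96645583, plus strand: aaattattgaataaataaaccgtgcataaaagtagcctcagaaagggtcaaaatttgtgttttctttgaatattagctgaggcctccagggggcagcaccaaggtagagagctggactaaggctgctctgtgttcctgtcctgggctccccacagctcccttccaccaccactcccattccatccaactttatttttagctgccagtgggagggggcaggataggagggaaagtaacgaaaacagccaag
Itgav, fell, chr2:83724147-83724396, plus strand: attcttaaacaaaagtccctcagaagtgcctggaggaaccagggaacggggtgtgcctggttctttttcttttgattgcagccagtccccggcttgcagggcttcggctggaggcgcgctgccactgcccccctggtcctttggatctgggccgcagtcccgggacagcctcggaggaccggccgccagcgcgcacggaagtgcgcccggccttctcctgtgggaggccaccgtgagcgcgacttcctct
Itga11, fell, chr9:62677605-62677854, plus strand: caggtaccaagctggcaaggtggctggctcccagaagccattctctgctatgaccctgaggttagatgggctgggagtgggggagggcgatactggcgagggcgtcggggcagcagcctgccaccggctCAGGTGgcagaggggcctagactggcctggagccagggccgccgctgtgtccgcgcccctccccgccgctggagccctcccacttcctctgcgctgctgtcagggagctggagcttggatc

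The share of G and C was 58.8% and 61.2% in the windows of Lamb3, 48.0% in that of Itga10, 64.4% in that of Itgav and 68.4% in that of Itga11. Both strands were searched for 5 short motifs, AP-1 (TGANTCA), the GC box (GGGCGG), the TATA box (TATAAA), the E-box (CAGGTG) and an ETS core (CCGGAA). Of these motifs only CAGGTG was found in the 5 windows shown, once in Itga11 and once, on the minus strand, in the second window listed for Lamb3, so that it was seen beside a chain that rose and beside a chain that fell. Among the 26 windows of the chains, CAGGTG was in 8, beside 17.2% of all 32851 windows, GGGCGG in 9 (32.7%), TGANTCA in 1 (6.75%), CCGGAA in 1 (12%) and TATAAA in 0 (12.4%). The 32851 windows were not limited by chromosome. A match is a description of letters in a window, and the data do not bear on binding there.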

How the data were processed

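RNA of 20 mouse tumour tissues was purified with a Direct-zol kit, and ribosomal RNA was removed before stranded libraries were built, per the labels' protocols. Trimmomatic 0.36, STAR (with the doubtful version string 5.5.4b), HTSeq and mm10 are named in the submitters' processing notes. Which annotation was counted, and with which strand setting, is not given in the sources used here. The authors deposited raw whole-number counts for each gene.

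Identifiers were matched to GENCODE M21 (GRCm38): 51633 of 51826 had a symbol, and 30 of the 36 chains had the same version. edgeR 4.0.16 (R 4.3.3) was run with filterByExpr (minimum count 10), TMM factors and its robust quasi-likelihood fit, in which the matched set was a block (13 residual degrees of freedom). p-values were Benjamini-Hochberg adjusted over all genes tested, with a threshold of 0.05. Sets were compared in their effect by an interaction test, in which a single primary tumour per set gives no spread of its own. DESeq2 1.42.0, other scalings, filters, covariates and left-out sets or metastases were alternatives. The pairing comes from the titles. Primary tumours and their metastases deviated together only weakly (mean correlation 0.0684, 1000 most variable genes). No columns were identical, and the chi-square between the closest libraries, metastases 6-1 and 6-2, was 27.9 for each degree of freedom.

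All 36 chains are accounted for. Other genes were named by rule: the 3 of smallest p in each of 3 lists, and partners in receptor and ligand pairs, with exceptions stated where they are named. The members, lists and alternatives were chosen with earlier results of these data known. On simulated data for this comparison (18452 genes, 50 at each size), the test found 2% of 1.5-fold, 12% of 2-fold, 62% of 4-fold and 82% of 8-fold changes. Count limits for values of 0 cover counting error only.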

Additional observations from a re-analysis of the deposited data

Results flagged for a closer look

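Among the 6 primary tumours, 6 of the 36 chains had a library far from the other 5, with a gap to its nearest neighbour of over 0.625 of the range. Such a gap arises by chance in about 1 of 20 groups, and the chains share the same libraries. Primary tumour 4 was lowest for Itga2b (-3.08 log2 CPM, the next 1.84), Itga5 (1.85, the next 6.28), Itga11 (-3.96, the next 0.87) and Lamb2 (2.51, the next 6.70), and highest for Itgb1 (11.4, the next 10.5). Primary tumour 6 was lowest for Itga4 (0.27 log2 CPM, the next 5.85). The leukocyte, endothelial and muscle indices of both libraries were also low, and their part in these values was not tested.

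The difference between metastases and primary tumour differed between sets for 5 of the 36 chains (13.9%, beside 4.1% of all tested genes) by edgeR's interaction test: Lama2 (adjusted p = 0.00186), Itgb3 (0.00318), Lama4 (0.0141), Itgal (0.0298) and Itgax (0.0367). The log2 difference of Lama2 was 7.02 in set 4 and 5.85 in set 6, against 0.20 to 0.81 elsewhere. For Itgb3 it was 6.09 and 2.99 in sets 4 and 6 and -1.33 to -0.05 in the others. For Lama4 it was 5.92 in set 4, 0.90 in set 6 and 0.15 in set 5, but -0.75, -2.46 and -3.14 in sets 1, 2 and 3. For Itgal it was 6.90 and 5.75 in sets 4 and 6 and -1.20 to -0.41 in the others, and for Itgax 8.36 and 6.09 in sets 4 and 6 and -1.35 to 0.82 in the others. Itgal and Itgax had 0 counts in primary tumour 4, and 4 and 7 counts in primary tumour 6. The size of their differences in sets 4 and 6 therefore depends on the prior count of 2.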

How the results depend on the processing

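Of 1043 fold changes of chains under 29 alternatives, 931 kept their direction and their side of the threshold, 38 lost the call, 31 gained one and 43 turned, all of the latter for chains outside the 7 called. The cause of changes was not tested. Shares of all tested genes in the same fit are in brackets. The count of chains that rose, 4, was 4 with no replicate block (6.62%). With a covariate it was 0 for the lung epithelium index (4.38%), 18 for the skeletal muscle index (15.4%) and 10 for the leukocyte index (11.8%). The lung, muscle and leukocyte indices themselves differed between the groups, so index and tumour type cannot be fully told apart in those fits. The leukocyte index was 3.93 to 6.4 in metastases, -0.707 and -0.953 in primary tumours 4 and 6, and 6.72 to 7.22 in the other primary tumours. The count that rose was 2 without sets 4 and 6 (4.17%), 1 with summed metastases (1.69%) and 7 by DESeq2 (12.7%). With a set or a metastasis left out it was 1 to 6 (3.09% to 10.4%). The count that fell, 3, was 0 with summed metastases (0.357%) or against a 1.5-fold change (1.46%). With a set or a metastasis left out it was 0 (without set 2, 2.22%) to 4 (without metastasis 3-2, 9.25%). Among the chains the replicate block changed only the call of Lamc1. The count that differed between sets, 0, was 1 with no filter (0.407%) and 6 with the lung epithelium index (11.6%). It was 9 without metastases 2-3 and 2-4 (19.4%) and 13 by DESeq2 (25.1%). With a set left out it was 0 to 7 (without set 2, 12.2%). For adaptors, 4 rises and 3 falls became 1 and 1 without the block, 0 and 0 with summed metastases and 2 and 1 with the lung epithelium index. For ligands, the 2 rises became 0 with summed metastases and with that index, and the 2 falls 1 without the block, 1 with summed metastases and 3 with that index, of which 1 was shared. For laminin receptors and linkers, the 3 rises were 5 by DESeq2, 1 with summed metastases, 2 with that index (1 shared) and 3 without the block (2 shared), and the 1 fall became 0 with summed metastases and with that index.

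These log2 fold changes turned. With the lung epithelium index they were -0.11 for Itga3, -1.35 for Itga8, -1.05 for Itga9, -1.14 for Itgal, -0.34 for Itgb3 and -0.0075 for Itgb7. With the muscle index they were -0.26 for Itga8, 1.72 for Itgae (past the threshold), 2.24 for Itgam, 1.81 for Itgb2 and 0.071 for Lama4, and with the leukocyte index 0.095 for Itgam and 0.11 for Itgb2. Without the block they were -0.029 for Itga4, -0.20 for Itgal, -0.068 for Itgax and -0.019 for Itgb1. Without sets 4 and 6 they were -0.50 for Itga4, -0.20 for Itga5, -0.46 for Itga9, -0.72 for Itgal, -0.49 for Itgb3 and 0.12 for Itgb8. Without metastases 2-3 and 2-4 they were -0.0020 for Itgb1 and 0.19 for Itgb2, and with summed metastases 0.12 for Itgae, 0.023 for Itgam and 0.64 for Itgb2. With a set or a metastasis left out the ranges were -0.23 to 0.41 for Itga4, -0.016 to 0.85 for Itga9, -0.57 to 0.12 for Itgae, -0.23 to 0.70 for Itgal, -0.50 to 0.64 for Itgb2 and -0.032 to 0.82 for Itgb3. Depth limits Lamb3, Lamc3, Itga11, Itgad and Lama1, which had few counts in primary tumours. Median levels per kilobase under RLE factors or the longest transcript's length moved by more than the spread in 7 of 72 cases.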
